A study of Mus musculus with 4 samples.

Results

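Interleukin 33 and 6 genes of type 2 immunity were followed by symbol through single-cell RNA sequencing of mouse adipose tissue (AT). The 7 genes, Il33, Il1rl1, Gata3, Areg, Il4, Il5 and Il13, were chosen by name from the 32290 features of the count tables, and none of them was used to set a cell class. Il33 was read in stromal and mesothelial cells and the other 6 in T cell subsets and in remaining lymphoid cells, by depot and genotype. Cells came from subcutaneous (SC) and intraperitoneal (IP) AT of WT and KO mice, in 4 groups of 1 library each. WT mice carried Tie2e-cre, TERT+/+ and mTmG, and KO mice carried Tie2e-cre, TERTfl/fl and mTmG. All mice were male, 7 months old and fed a high-fat diet (HFD) for 5 months. Both genotypes thus carried the Cre recombinase, which is driven by a Tie2 promoter meant for endothelial cells (EC), and mTmG, a reporter that changes from tdTomato to GFP where Cre has acted. How many mice stood behind a library is not stated, and by the labels the material loaded could be cells or nuclei.

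IL-33 is an alarmin, a cytokine kept in the nucleus of stromal and barrier cells and set free when they are injured or stressed. It binds ST2, the product of Il1rl1, which pairs with the shared subunit encoded by Il1rap and signals through MyD88 to NF-kB. Innate lymphoid cells of type 2, tissue regulatory T cells (Treg), mast cells and basophils carry ST2, and the first of these release IL-5, which supports eosinophils, and IL-13. In adipose tissue this axis is known for sustaining Treg and eosinophils, while amphiregulin (Areg), a ligand of the EGF receptor, is known for tissue repair.

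The transcription factor GATA3 (Gata3) controls the type 2 program and binds DNA at GATA letters. Each remaining lymphoid cell with Il1rl1 also carried Gata3, as given below. The 250 bases before each of the 2 annotated starts of Il1rl1 are therefore shown, from RefSeq on GRCm38.p6, plus strand. In other classes the 2 genes did not always go together. Of Treg with Il1rl1, 6 carried Gata3 and 1 did not in WT SC, and 7 did and 4 did not in KO SC. Gamma delta T cells and NK cells carried Gata3 but no Il1rl1. The motif searched was AGATAA and its variants TGATAA, with AGATAG and also TGATAG, on both strands, and capitals mark each match as it reads on the plus strand.
Il1rl1, upstream start, chr1:40429320-40429569: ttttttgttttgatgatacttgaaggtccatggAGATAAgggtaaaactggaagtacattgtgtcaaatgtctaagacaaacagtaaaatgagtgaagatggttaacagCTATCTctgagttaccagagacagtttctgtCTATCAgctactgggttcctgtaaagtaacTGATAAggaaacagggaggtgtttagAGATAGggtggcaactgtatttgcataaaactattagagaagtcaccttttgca
Il1rl1, downstream start, chr1:40439379-40439628: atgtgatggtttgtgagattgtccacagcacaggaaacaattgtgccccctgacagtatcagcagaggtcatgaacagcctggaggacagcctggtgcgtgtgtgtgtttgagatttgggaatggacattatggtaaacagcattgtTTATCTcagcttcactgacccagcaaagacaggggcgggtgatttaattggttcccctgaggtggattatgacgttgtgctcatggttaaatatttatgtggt
The upstream window held 5 matches and the downstream window 1. Of 32851 windows of the same length, 26.5% held at least 1 match and 6.40% at least 2. Their mean GC content was 53.2%, and they were not matched to the Il1rl1 windows. The motifs are rich in A and T, so these shares do not allow for base composition. Both windows before the starts of Il33 held 0. A match is a run of letters and was not tested as a binding site. Counts were made per gene, so the transcripts of the upstream and downstream starts, and the membrane and soluble forms of ST2, cannot be told apart.

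The 4 tables held 4927 barcodes and 49915547 UMIs (unique molecular identifiers, each 1 captured RNA molecule). Of these, 4027 cells were kept, from 517 to 1868 a library, with a median of 6912.5 to 13054 UMIs a cell. KO SC and WT IP shared 93 barcodes, whereas each other pair of libraries shared 0 or 1. In 92 of the 93, the KO SC barcode held 1.5% to 1.99% of the UMIs of the same barcode in WT IP, and a median of 99.1% of its genes were also found there. These 92, of which 78 passed as stromal cells, were left out of KO SC, and values with them are given where they matter. GFP UMIs were found in 12 of 17 EC of WT IP and 1 of 5 EC of KO IP, and in 2 of 3 EC of WT SC and 2 of 2 of KO SC. They were also found in 67.5% of T cells in WT SC and 73.4% in WT IP, against 40.6% in KO SC and 35.4% in KO IP. T cells thus differed in GFP between genotypes in both depots, while tdTomato UMIs were found in 5.65% to 10.2% of them. Stromal cells had GFP UMIs in 18.1% to 53.6%, so reporter RNA was not confined to EC. What this says of Cre in those cells was not tested.

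Cells were placed in classes by marker UMIs, with at least 3 distinct markers asked. Levels are given as CPM, the UMIs of a gene scaled to the total UMIs of its class in a library. All intervals are 95% and cover counting error only, since 1 library a group leaves no spread between mice and no test. Those of levels and ratios treat each UMI as independent and also leave out the spread between cells of a class. A difference is called beyond counting error where its interval leaves out 0 on the log2 scale. Levels of different genes were not compared, because 3' tags of different genes are captured unequally.

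Il33 (ENSMUSG00000024810, GRCm38 chromosome 19, 29925114 to 29960718, plus strand, protein coding) had 1383 UMIs in 268 kept cells. Stromal cells held 75.7% of them and mesothelial cells 22.8%. No Il33 UMI was found in 1867 T cells, 821 B cells, 111 NK cells or 37 remaining lymphoid cells. Among 27 EC, the cells in which the KO was designed to act, Il33 had 2 UMIs in WT IP and 1 in KO IP. Nearly all Il33 UMIs thus lay in cells with stromal or mesothelial markers.

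In stromal cells Il33 stood at 109 CPM in WT SC (94.3 to 125, 197 UMIs in 103 cells) and 73.4 CPM in KO SC (60.8 to 87.7, 120 UMIs in 125 cells). In IP it stood at 57.4 CPM in WT (51.6 to 63.7, 358 UMIs in 287 cells) and 83.4 CPM in KO (75.1 to 92.3, 372 UMIs in 221 cells). WT SC was thus highest and WT IP lowest, and both KO libraries lay between them. Neighbours in this order, WT IP and KO SC or KO SC and KO IP, had overlapping intervals. With the shared barcodes kept, KO SC had 203 stromal cells and 73.0 CPM.

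KO was lower than WT in SC, by a log2 ratio of -0.57 (-0.91 to -0.24), and higher than WT in IP, by 0.54 (0.33 to 0.75). Il33 did not pass 2-fold in either depot, where 2.93% of 9764 genes in SC and 3.82% of 12407 in IP were higher in KO by that much, and 2.81% and 2.46% were lower. Both the lower value in SC and the higher value in IP depended on how cells were weighted. When the mean of the CPM of single cells was taken in place of the summed UMIs, the log2 ratio was -0.14 in IP and -0.13 in SC. IP against SC was -0.93 (-1.18 to -0.67) in WT and 0.18 (-0.12 to 0.49) in KO.

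The share of stromal cells with at least 1 Il33 UMI was 39.8% in WT SC and 29.6% in WT IP, against 35.2% in KO SC and 27.6% in KO IP. After each cell was thinned to 2000 UMIs, with 11 to 27 shallower cells a library left out, the shares were 14.4% (7.92 to 23.4) in WT SC, 13.2% (7.56 to 20.8) in KO SC, 8.02% (5.03 to 12.0) in WT IP and, for KO IP, 10.8% (6.83 to 16.1). All 4 intervals overlap. Il33 was uneven between cells. In WT IP a single cell held 57 of the 358 UMIs, and the 5 highest cells held 30.8% to 42.1% of the UMIs in each library.

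Stromal cells were split by which of the 2 lists they showed more of, early progenitor markers (Dpp4, Pi16, Cd55, Anxa3, Sema3c) or committed preadipocyte markers (Pparg, Fabp4, Icam1, Lpl, Cd36). In SC, Il33 lay in the early cells. WT SC had 154 CPM in 65 early cells (133 to 177) and 11.3 CPM in 30 committed cells (3.65 to 26.3), a log2 ratio of 3.64 (2.52 to 5.41). KO SC had 93.4 CPM in 94 early cells (77.2 to 112) and 0 UMIs in 22 committed cells. Against a floor of 3 UMIs the early cells were 10.6-fold higher, and the counting interval began at 8.48-fold. With the shared barcodes kept, 62 committed cells of KO SC held 2 Il33 UMIs. Il33 thus passed 2-fold in both SC libraries, as did 13.9% of 7826 genes in WT and 12.1% of 7729 in KO.

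**Figure D1:**
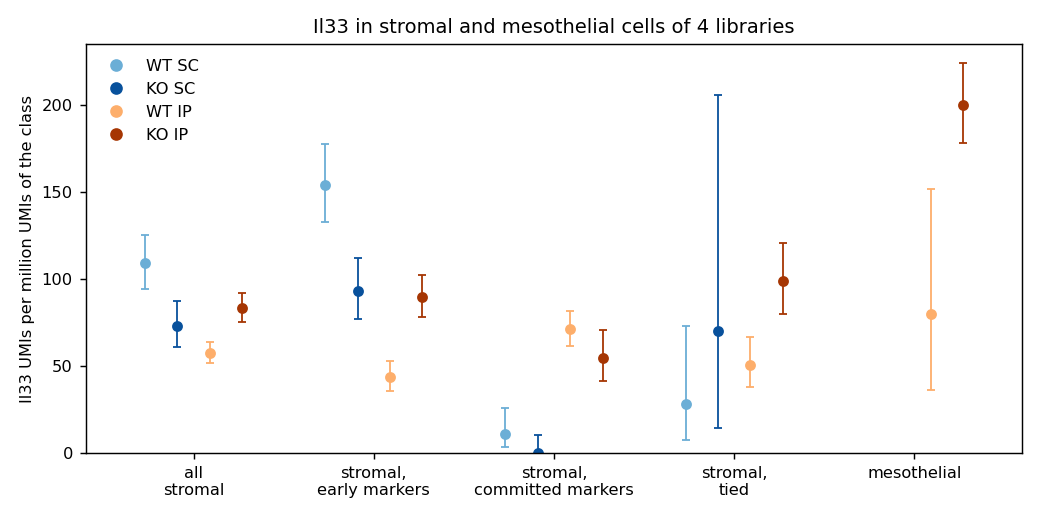
Il33 in stromal cells, their early, committed and tied marker groups and mesothelial cells, as CPM (vertical axis). Points are the 4 libraries and bars 95% Poisson intervals. In SC the early cells stand above the committed cells, while in IP the marker groups lie closer together, and mesothelial cells of KO IP are highest at 200.1 CPM.

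In IP the levels of the marker groups were closer. KO IP had 89.5 CPM in 111 early cells and 54.7 CPM in 56 committed cells, with the early cells higher by 0.70 (0.28 to 1.16) on the log2 scale. WT IP had 43.6 CPM in 105 early cells and 71.1 CPM in 130 committed cells, with the early cells lower by a log2 ratio of -0.70 (-1.06 to -0.36), a direction that turned to 0.26 when each cell counted equally. Neither passed 2-fold, where 5.15% of genes in WT IP and 4.8% in KO IP were higher in the early cells by that much, and 3.72% and 4.86% lower. Committed cells had more Il33 in IP than in SC, at 11.3 CPM in WT SC against 71.1 CPM in WT IP, which is higher by 2.53 (1.41 to 4.30) on the log2 scale. In KO they were 6.20-fold higher in IP against the floor of 3 UMIs in SC, and the interval began at 4.88-fold.

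Within the early cells the genotype differences were wider than in all stromal cells. KO was lower by -0.72 (-1.07 to -0.38) in SC and higher by 1.04 (0.70 to 1.39) in IP. With cells weighted equally, the IP value was 0.10. Immediate early and heat shock genes, which rise when tissue is taken apart, summed to 10887 CPM in early cells of WT SC and 14181 CPM in KO SC, against 11749 CPM in WT IP and 9966 CPM in KO IP. Their levels thus moved opposite to Il33 in both depots, and their part in the result was not tested.

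Mesothelial cells line the visceral cavity and were found only in IP, 4 in WT and 31 in KO, with all 11 markers present in both. Il33 stood at 200.1 CPM in KO IP (178 to 224, 307 UMIs, 24 cells with Il33) and 79.9 CPM in WT IP (36.6 to 152, 9 UMIs, 3 cells). KO mesothelial cells were above KO stromal cells by a log2 ratio of 1.26 (1.04 to 1.48). The difference between KO and WT, 1.25 (0.38 to 2.47), rested on 4 WT cells and was -0.01 when cells counted equally. The immediate early and heat shock genes moved with it, at 9965 CPM in WT and 16560 CPM in KO mesothelial cells, and their part in the result was not tested. One cell of KO IP held 69 of the 307 UMIs.

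The genes whose levels most followed Il33 were sought over the 33 pairs of class and library with at least 20 cells, by the Pearson correlation of log2(CPM + 1) across 12439 genes. They were Hspb8, a small heat shock protein (r = 0.99), Olfml2b, an extracellular matrix protein (0.99), Npr1, the receptor of atrial natriuretic peptide (0.99), Aox1, an aldehyde oxidase (0.99), and Rasgef1c (0.99). The stromal, mesothelial and lymphoid pairs form separate sets of points, so these values mainly say in which classes a gene was found.

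Il1rl1 (ENSMUSG00000026069, GRCm38 chromosome 1, 40429570 to 40465415, plus strand, protein coding), the gene of ST2 whose upstream windows are given above, had 386 UMIs in 82 cells. T cells held 48.4% of them and remaining lymphoid cells 26.9%. Treg, set by a Foxp3 UMI, numbered 22 in SC and 1 in IP of WT, and 47 in SC and 2 in IP of KO. They also carried Ctla4 and Ikzf2, at 1822 and 2188 CPM against 106 and 95.8 CPM in all other cells.

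Il1rl1 in Treg stood at 146 CPM in WT SC (106 to 197, 43 UMIs, 7 of 22 cells) and 176 CPM in KO SC (141 to 219, 83 UMIs, 11 of 47 cells). The genotypes overlapped, with a log2 ratio of 0.26 (-0.28 to 0.84). The Treg of WT IP held 7 UMIs, and 1 of the 2 Treg of KO IP held 2. In naive CD4 T cells, 0 UMIs were found in 91 cells of WT SC and 233 of KO SC. Against a floor of 3 UMIs, Treg were 36.6-fold higher in WT SC and 95.4-fold higher in KO SC. The counting intervals began at 28.5-fold and 75.9-fold. Effector or memory CD4 T cells had 0 UMIs in 16 cells of WT SC and 1 UMI in 47 cells of KO SC. The gene was at 0 in all 207 gamma delta T cells, 676 naive CD8 T cells, 63 effector or memory CD8 T cells, 111 NK cells and 821 B cells. T cells that fell in none of the subsets held 4 UMIs in 1 of 102 cells of WT SC, 12 in 3 of 204 of KO SC, 4 in 1 of 35 of WT IP and 12 in 2 of 30 of KO IP, with 11 of those 12 in a single cell.

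**Figure D2:**
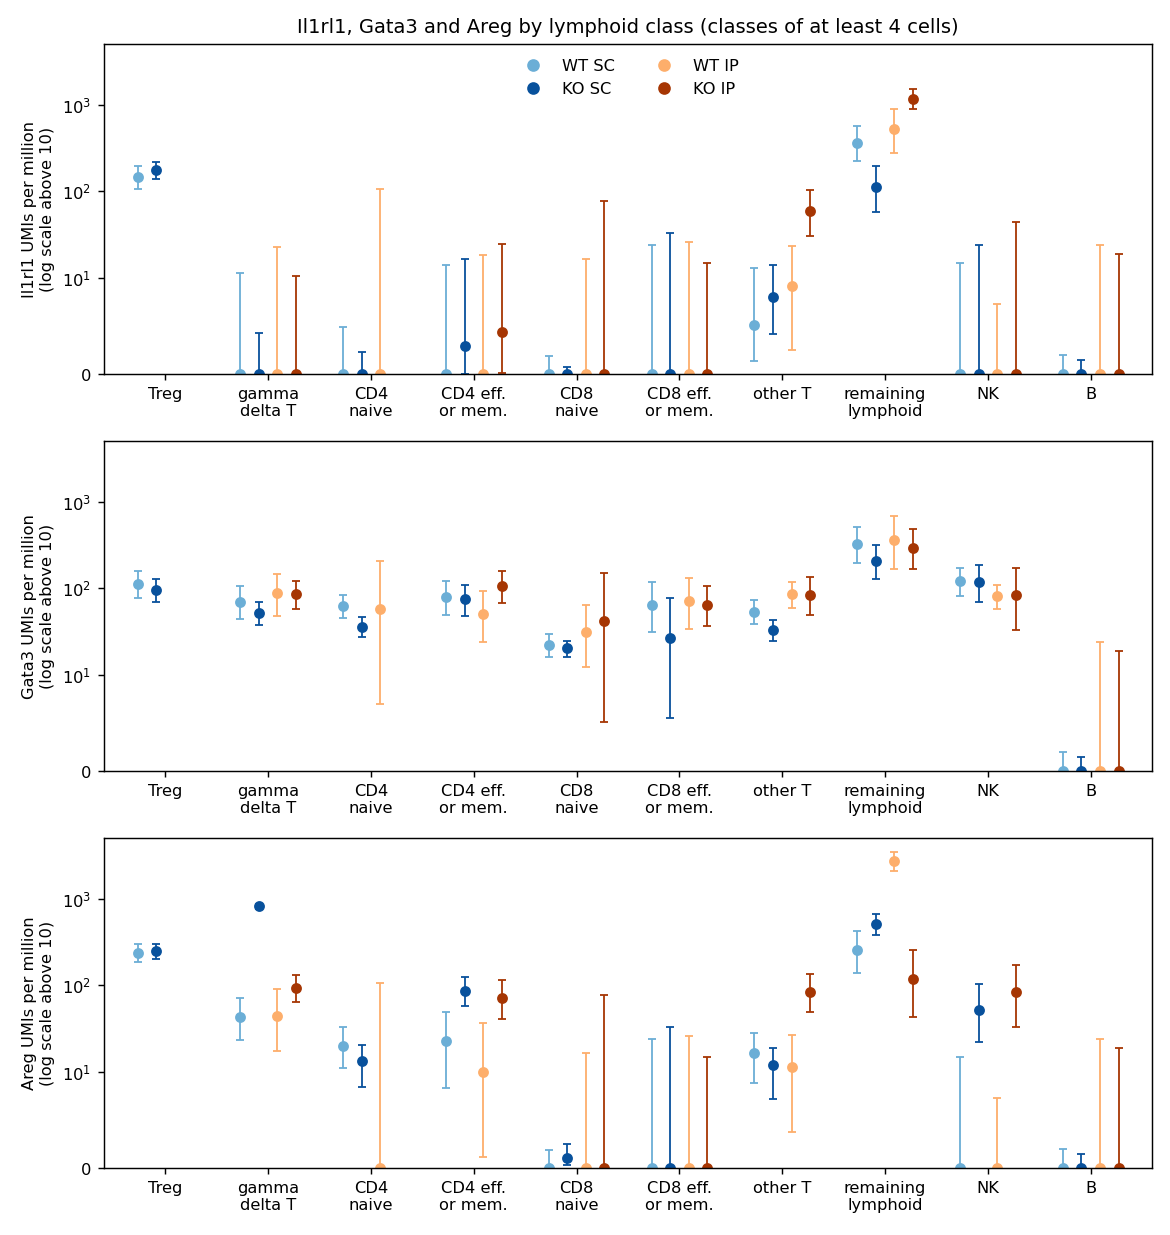
Il1rl1, Gata3 and Areg in lymphoid classes, as CPM (vertical axes, linear up to 10 and log above). Points are the libraries with at least 4 cells in a class and bars 95% Poisson intervals. Il1rl1 stands out in Treg and remaining lymphoid cells, Gata3 is spread over all classes but B cells, and Areg of gamma delta T cells is far higher in KO SC (816 CPM) than in the other libraries.

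Remaining lymphoid cells were those with a leukocyte gene and at least 3 of Il7r, Thy1, Rora, Id2, Icos, Il2ra, Klrg1, Cxcr6 and Ltb but too few markers of T, B or NK cells. They were 37 in all, 6 and 4 of them in SC and IP of WT and 18 and 9 in SC and IP of KO, with Cd79a at 0. The 7 T cell markers summed to 254 to 590 CPM in them against 3440 to 4126 CPM in T cells, and no cell type name was given to them. A list of 3 naive T cell genes set them apart less clearly. Its sum was 1111 CPM for KO SC, 581 for WT SC, 486 for WT IP and 157 for KO IP. All T cells had, in the same order, 1590, 1491, 470 and 286 CPM. A list of 8 B cell genes summed to 36.3 to 98.3 CPM in the class. Its make-up may thus differ between libraries, and the part of this in its Il1rl1, Gata3 and Areg levels was not tested.

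Il1rl1 was carried by 10 of the 37 cells, at 3 to 20 UMIs each. In KO IP 6 of 9 cells carried it, with 8, 8, 10, 10, 10 and 13 UMIs. In WT IP 2 of 4 cells carried 3 and 10 UMIs, and SC had 1 such cell of 6 in WT (20 UMIs) and 1 of 18 in KO (12 UMIs). The summed levels were 1160 CPM in KO IP (883 to 1496), 526 CPM in WT IP (280.1 to 899), 363 CPM in WT SC (222 to 560.4) and 113 CPM in KO SC (58.4 to 197). In each of the 4 libraries this was above all T cells beyond counting error, by log2 ratios of 3.54 in KO SC to 5.84 in WT IP. All T cells include naive cells at 0, and Treg of SC stood at 146 CPM in WT and 176 CPM in KO. Remaining lymphoid cells thus lay above Treg in WT SC but not in KO SC, and each of these SC levels rested on 1 cell. The summed immediate early and heat shock genes also differed between these small groups, from 8889 CPM in WT SC to 17715 CPM in KO IP, and their part in the levels was not tested.

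**Figure D3:**
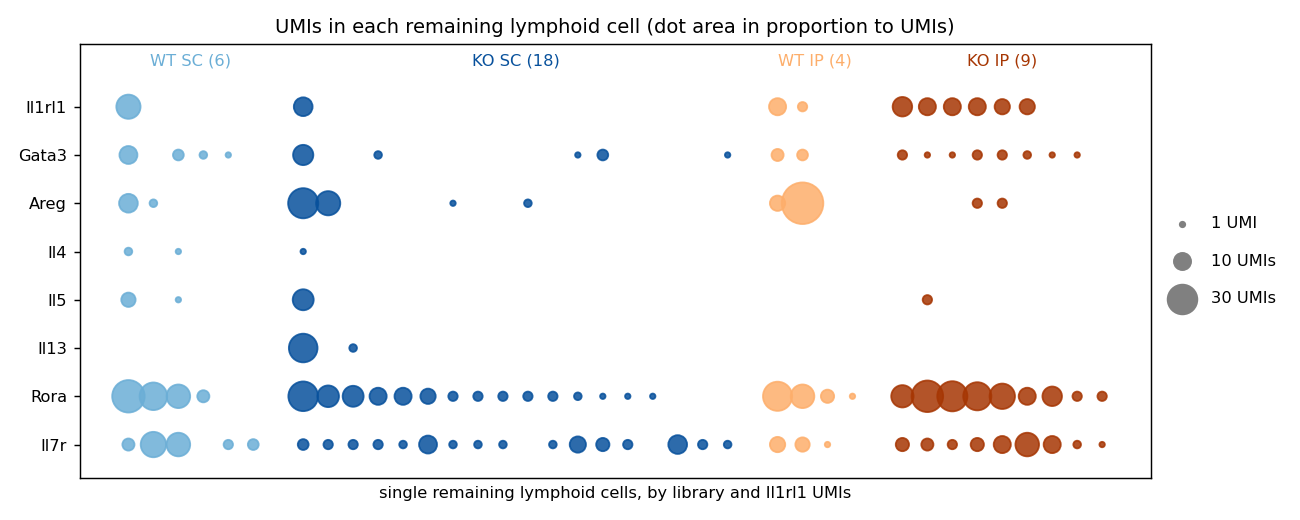
UMIs of 8 genes in each of the 37 remaining lymphoid cells. Each column is 1 cell, ordered within its library by Il1rl1, and dot area is in proportion to UMIs. The 10 cells with Il1rl1 sit at the left of each library and carry Gata3 and most Rora. Il5 lies in 3 of them and Il13 in 1, a KO SC cell that also holds most Il5.

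The cells with Il1rl1 differed from the rest in what else they carried. Gata3 was found in 10 of 10 of them and in 9 of 27 without Il1rl1. Rora, a factor needed for innate lymphoid cells of type 2 and itself 1 of the 9 genes of the gate, had 10 to 36 UMIs in the former and a median of 3 in the latter. Areg was found in 6 of 10 against 4 of 27. Depth differed too, with medians of 8454.5 and 4356 UMIs a cell, and its part in these counts was not tested.

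Il5 (ENSMUSG00000036117, GRCm38 chromosome 11, 53720794 to 53725106, plus strand, protein coding) had 27 UMIs in 5 cells, of which 26 lay in 4 remaining lymphoid cells. One cell of KO SC held 15 UMIs, 2 cells of WT SC held 7 and 1, a KO IP cell held 3, and 3 of the 4 carried Il1rl1. Il13 (ENSMUSG00000020383, GRCm38 chromosome 11, 53631324 to 53634702, minus strand, protein coding) had 43 UMIs in 6 cells. The KO SC cell with 15 Il5 UMIs held 28 of them, beside 12 Il1rl1, 14 Gata3, 31 Areg and 1 Il4 UMIs, and a second remaining lymphoid cell of KO SC held 2. The other 13 lay in 4 cells of the mast cell or basophil class. Neither cytokine had a UMI in any of the 1867 T cells.

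Il4 (ENSMUSG00000000869, GRCm38 chromosome 11, 53602982 to 53618669, minus strand, protein coding) had 50 UMIs in 19 cells. The mast cell or basophil class held 34 of them in 5 of its 6 cells. One cell of WT SC held 26 Il4 UMIs and 4 of Mcpt8, a basophil protease, while 3 cells with the mast cell protease Mcpt4, at 16, 347 and 371 UMIs, held 2, 3 and 1 Il4 UMIs. The class also held the Il1rl1 UMIs of 4 cells, up to 18 in a WT IP cell with 347 Mcpt4 UMIs. The 1 cell of this class in KO SC, with 9 Il13 and 2 Il4 UMIs, had Cpa3, Mcpt4 and Mcpt8 all at 0 and is uncertain. In T cells, Il4 came to 4 UMIs in 3 cells, and in remaining lymphoid cells also to 4 UMIs in 3 cells. Stromal cells held 6 UMIs in 6 cells and mesothelial cells 2 UMIs in 2 cells, so single Il4 UMIs were also found outside immune cells. Since single cells set these counts, Il4, Il5 and Il13 were not compared between genotypes or depots.

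Gata3 (ENSMUSG00000015619, GRCm38 chromosome 2, 9857078 to 9890034, minus strand, protein coding) had 941 UMIs in 524 cells, 78.7% of them in T cells, 10.2% in NK cells and 6.80% in remaining lymphoid cells. It overlaps 9230102O04Rik on its own strand and, on the other strand, Gm13256 and 4930412O13Rik, and Il5 overlaps Gm12214 on the other strand, so reads there could be split or lost. B cells held 0 UMIs in 821 cells.

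Among T cells Gata3 was highest in Treg and lowest in naive CD8 T cells in both SC libraries. In KO SC, remaining lymphoid cells stood at 207 CPM (130 to 314), Treg at 95.7 CPM (69.8 to 128), effector or memory CD4 T cells at 74.3 CPM (48.1 to 110), gamma delta T cells at 52.2 CPM (38.1 to 69.8), naive CD4 T cells at 35.8 CPM (27.1 to 46.2) and naive CD8 T cells at 20.2 CPM (16.3 to 24.8). The order was close in WT SC, with 327 CPM in remaining lymphoid cells, 112 CPM in Treg, 79.9 CPM in effector or memory CD4, 70.4 CPM in gamma delta, 62.6 CPM in naive CD4 and 22.3 CPM in naive CD8 T cells. The intervals of Treg, effector or memory CD4 and gamma delta T cells overlap from one to the next, as do those of gamma delta and naive CD4 T cells, while naive CD8 T cells lay below naive CD4 T cells in both. In WT SC this rested on a single naive CD4 T cell with 22 of the 47 UMIs. With the highest cell of each class left out, WT SC had 34.1 CPM in naive CD4 (22.1 to 50.3) and 21.4 CPM in naive CD8 T cells (15.3 to 29.1), which overlap, and KO SC had 34.1 CPM (25.7 to 44.3) and 19.4 CPM (15.6 to 24.0), which do not.

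Treg had more Gata3 than naive CD4 T cells beyond counting error, by 0.85 (0.15 to 1.51) in WT SC and 1.42 (0.82 to 2.01) in KO SC. KO against WT passed counting error in naive CD4 T cells of SC, at -0.81 (-1.39 to -0.22), but the same WT cell set this, and the ratio was -0.02 with the highest cell of each library left out. NK cells had 122 CPM in WT SC and 117 CPM in KO SC. KO was also lower than WT in the T cells of SC that fell in none of the subsets, at -0.70 (-1.33 to -0.07). Effector or memory CD4 T cells of IP stood at 50.6 CPM in WT, against 107 CPM in KO, at a log2 ratio of 1.04 with an interval of -0.04 to 2.30. In gamma delta T cells the ratio was -0.45 (-1.19 to 0.36) in SC and -0.06 (-0.996 to 0.99) in IP.

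Areg (ENSMUSG00000029378, GRCm38 chromosome 5, 91139599 to 91148432, plus strand, protein coding) had 1317 UMIs in 179 cells, 84.5% of them in T cells and 10.7% in remaining lymphoid cells. B cells again held 0. The class with most Areg UMIs was the gamma delta T cells of KO SC.

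These had 703 Areg UMIs in 120 cells, or 816 CPM (756 to 878). WT SC had 14 UMIs in 31 cells, or 42.9 CPM (23.4 to 71.9). The difference was 4.2 (3.49 to 5.13) on the log2 scale, a ratio of 19.0, where 6.12% of 5962 genes were higher in KO by at least 2-fold. In IP, gamma delta T cells stood at 43.8 CPM in WT (17.6 to 90.3, 7 UMIs in 18 cells) and 94.1 CPM in KO (64.8 to 132, 33 UMIs in 38 cells), with a log2 ratio of 1.02 (-0.10 to 2.52), where 9.35% of 4065 genes were higher by at least 2-fold. KO SC thus lay far above the other 3 libraries, whose intervals overlap.

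**Figure D4:**
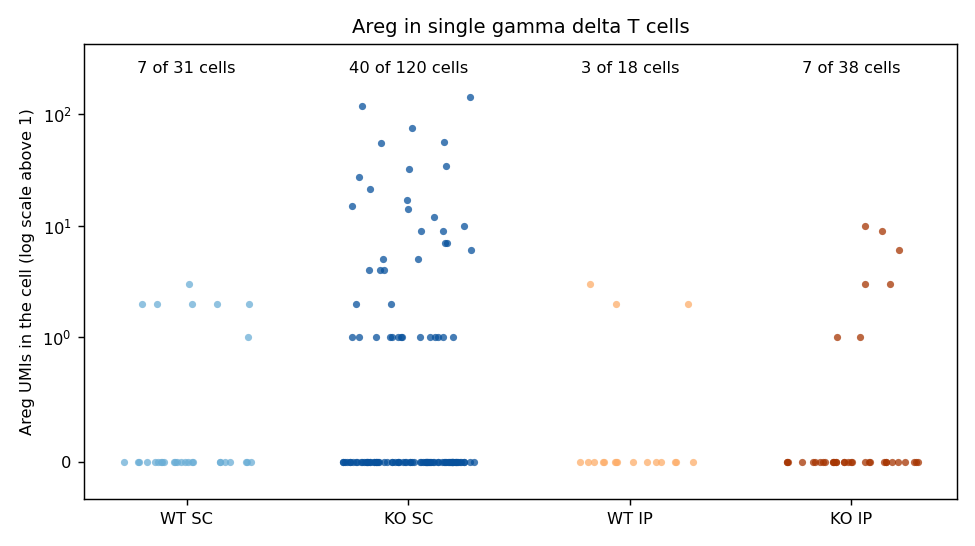
Areg UMIs in single gamma delta T cells (vertical axis, linear up to 1 and log above), with cells placed at random along the horizontal axis within their library. Each point is 1 cell. In KO SC, 40 of 120 cells carried Areg, with up to 141 UMIs, while in WT SC no cell carried more than 3.

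The KO SC signal came from a minority of cells. Areg was found in 40 of the 120 cells (33.3%) against 7 of 31 in WT SC (22.6%). After thinning to 2000 UMIs the shares were 22.7% (15.5 to 31.3) of 119 cells and 3.23% (0.08 to 16.7) of 31 cells. Among the 40, the median was 5 UMIs and the highest 141, and the 5 highest cells held 63.0% of all Areg UMIs. In WT SC the 7 cells held 1 to 3 UMIs each, in WT IP 3 cells held 2 to 3, and in KO IP 7 cells held 1 to 10.

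Il17a, the gene of interleukin 17A, which a kind of gamma delta T cell makes, stood in these cells at 110 CPM in WT SC and 1398 CPM in KO SC, and at 733 CPM in WT IP and 202 CPM in KO IP. Immediate early and heat shock genes summed to 10832 CPM in gamma delta T cells of WT SC and 11438 CPM in KO SC, and to 10666 CPM in WT IP and 7238 CPM in KO IP, and their part in the Areg levels was not tested.

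Treg of both genotypes carried Areg in SC, at 238 CPM in WT (185 to 301, 10 of 22 cells) and 247 CPM in KO (204 to 296, 23 of 47 cells), with a log2 ratio of 0.05 (-0.39 to 0.50). One WT cell held 47 of the 70 UMIs, and with the highest cell of each library left out the ratio was 1.42. Against naive CD4 T cells, Treg were higher by 3.54 (2.75 to 4.48) in WT SC and 4.16 (3.52 to 4.91) in KO SC. Of Treg with Il1rl1, 5 of 7 in WT SC and 9 of 11 in KO SC also carried Areg. Of Treg without Il1rl1, 5 carried Areg and 10 did not in WT SC, and 14 did and 22 did not in KO SC. After thinning, 0 of 2 and 5 of 9 cells with Il1rl1 carried both.

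Effector or memory CD4 T cells had more Areg in KO in both depots. They stood at 22.8 CPM in WT SC (6 UMIs, 2 of 16 cells) and 86.2 CPM in KO SC (29 UMIs, 12 of 47 cells), a log2 ratio of 1.83 (0.62 to 3.48). In IP they stood at 10.1 CPM in WT (2 UMIs, 1 of 28 cells) and 71.1 CPM in KO (16 UMIs, 3 of 26 cells), a log2 ratio of 2.54 (0.72 to 5.98). The direction was shared by the depots, but few cells carried it, and 1 cell of KO IP held 9 of the 16 UMIs. T cells of IP that fell in none of the subsets also had more in KO, with 17 UMIs in 3 of 30 cells against 5 UMIs in 1 of 35 cells of WT (2.77, 1.37 to 4.66). Naive CD8 T cells held 5 UMIs in 479 cells of KO SC and 0 in the other libraries.

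**Figure D5:**
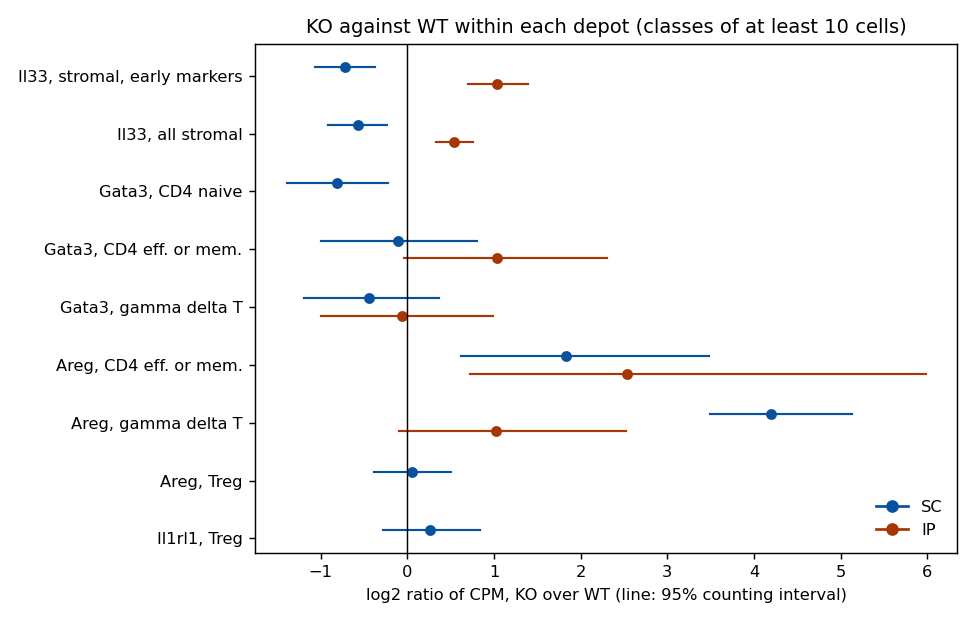
Log2 ratios of CPM, KO over WT (horizontal axis), for 9 pairs of member and class, shown where both libraries of a depot had at least 10 cells. Points are the ratios and lines their 95% counting intervals, for SC and IP. Il33 in stromal cells lies on opposite sides of 0 in the 2 depots, and Areg lies above 0 in effector or memory CD4 T cells of both and in gamma delta T cells of SC.

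Among remaining lymphoid cells Areg was set by single cells. A WT IP cell held 59 of that library's 67 UMIs, and 1 KO SC cell held 31 of 54 and another 20. WT SC held 14 UMIs and KO IP 6 in 2 cells, so ratios between these groups describe a few cells. Over the 18 pairs of lymphoid class and library with at least 20 cells, the 5 genes most like Areg among 8349 were Capg, an actin-capping protein (r = 0.92), Pim1, a kinase of cytokine signalling (0.88), Dst (0.88), Il2ra, the alpha chain of the IL-2 receptor (0.88), and Itgav, an integrin chain (0.88). Il2ra is also a Treg marker. For Gata3 they were Mdfic (0.89), Glcci1 (0.88), Nrp1, a neuropilin of Treg (0.85), Fkbp1a (0.85) and Ttc39c (0.85), and for Il1rl1 they were Dnajc24 (0.83), Mapkbp1 (0.78), Nt5e, the ectonucleotidase CD73 (0.76), Marcksl1 (0.76) and Cndp2 (0.75). Pairs from 1 library share its depth.

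The other genes of the pathway were read from a list of 63. In stromal cells of SC, 29 had enough UMIs, of which 1 was higher in KO by at least 2-fold (Irf4, 11.6 CPM in WT and 23.8 CPM in KO) and 1 lower (Ccl8, 50.4 and 15.9 CPM). In IP 34 had enough, of which 1 was higher (Tnfrsf9, 2.24 and 5.83 CPM) and 2 lower (Crlf2, of the TSLP receptor, at a log2 ratio of -1.02, and Batf, 4.33 and 1.12 CPM). These 5 are named because the counts are small, and no gene passed in both depots. The shares of the list in SC were 3.45% each way, where 2.93% of all genes were higher and 2.81% lower. In IP they were 2.94% higher and 5.88% lower, where 3.82% and 2.46% of all genes were, and each of these list shares rests on 1 or 2 genes. The median log2 ratio of the list genes compared was 0.14 in SC and 0.07 in IP, against 0.01 and 0.06 for all genes compared.

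Between depots, 3 of 33 list genes were higher in IP and 2 lower in WT, where 9.44% of 11775 genes were higher and 6.35% lower. In KO, 3 of 32 were higher and 4 lower, where 11.3% of 11378 genes were higher and 5.99% lower. Il18, another cytokine of the IL-1 family, was lower in IP stromal cells in both genotypes, by log2 ratios of -1.82 (-2.29 to -1.36) in WT and -1.98 (-2.46 to -1.52) in KO. Irf4 was also lower in both, at -2.82 and -4.94, and Penk, the gene of proenkephalin, was higher in both, at 1.21 (0.98 to 1.45) and 1.4 (1.17 to 1.64). Of the 13 genes of the IL-33 receptor complex and its signalling, 12 were compared in stromal cells and none passed 2-fold between genotypes. Between depots none of the 12 passed in WT, and in KO Il1rap, the partner of ST2, was lower in IP than in SC (17.5 and 38.5 CPM). In WT Il1rap stood at 21.0 CPM in IP and 30.4 CPM in SC, and it is named after its values were seen.

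In gamma delta T cells of SC, 3 of 29 list genes were higher in KO and 2 lower, where 6.12% of 5962 genes were higher and 8.12% lower by at least 2-fold. In WT and KO, these were Calca, the gene of calcitonin gene-related peptide (12.2 and 158 CPM), Icos, a costimulatory receptor (499 and 1862 CPM), Tnfrsf9 (36.7 and 172 CPM), Tnfsf11 (36.7 and 9.28 CPM) and Tnfrsf18 (64.3 and 18.6 CPM). In IP, Ccr2 alone was higher (207 and 453 CPM) of 22 compared, and none was lower, where 9.35% of 4065 genes were higher and 4.75% lower. In Treg of SC, 1 of 29 was higher in KO, the kinase gene Map3k7 (10.2 and 40.4 CPM), and 4 were lower, where 5.01% and 6.87% of 5106 genes were. The 4 were Il4ra, Il17ra, Ccr2 and Klrg1, a marker of mature tissue Treg (71.4 and 19.1 CPM), and the interval of Il17ra held 0. These genes of gamma delta T cells and Treg are named after their values were seen.

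Treg were also set against naive CD4 T cells of the same library. In WT SC 13 of 29 list genes were higher by at least 2-fold and 3 lower, where 14.0% of 5784 genes were higher and 7.07% lower. In KO SC 17 of 33 were higher and 1 lower, where 16.1% of 7299 genes were higher and 7.58% lower. Of these, 11 were higher in both libraries, and no gene was lower in both. The 11 included Rora (2.49 in WT and 3.0 in KO, log2), Tnfrsf4, the gene of OX40 (3.05 and 3.28), Tnfrsf9 (3.16 and 5.84), Batf (1.91 and 2.42), Maf (2.41 and 1.51), Icos (1.37 and 1.36), Ccr2 (4.45 and 2.86), Tnfrsf18 (1.61 and 1.98), Irak2, a kinase of the IL-33 signal (1.90 and 1.79), and Crlf2 (1.03 and 1.47). The 11th was Irf4 (1.02 and 1.93), whose interval in WT held 0. Apart from Irak2 and Crlf2, these genes were listed as regulators shared by tissue Treg and type 2 cells, so their direction is not independent of how the list was chosen.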

How the data were processed

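Libraries were 10x Genomics Chromium 3' v3, and the unit of the deposited tables is the raw UMI count per feature and barcode. Per the file headers the authors ran Cell Ranger 7.0.0, and the submitters' processing notes add STAR 2.6 and mm10. Whether intronic reads were counted is not given in the sources used here, and it would raise long genes.

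Cells needed 200 genes or more and no more than 25% mitochondrial UMIs. Scrublet (scanpy 1.11.5, expected rate 5%) called 17 doublets (0.420%), which were dropped, and others may remain. Barcodes of KO SC with under 10% of the UMIs of the same barcode in WT IP were left out, a choice made after seeing the data.

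Each cell was given the class whose marker list was detected to the greatest extent, from 3 markers upwards, and cells with 50% or more of the lists of different families were set aside as mixed. T cells were Treg with Foxp3 and no Cd8, and gamma delta with Trdc and neither Cd4 nor Cd8, and CD4 or CD8 cells were naive or effector by their larger marker share. A split of gamma delta T cells by further markers is not reported here. UMIs were summed by class and library. Ratios had 0.5 UMI added on either side, and 2-fold counts used genes with 20 or more UMIs summed over the compared libraries. Intervals (95%) were exact Poisson for levels, Clopper-Pearson for shares and conditional binomial for ratios. A count of 0 was taken to allow 3. No test between groups was possible. The ratios and their intervals were tried on simulated Poisson counts drawn from class totals. Those counts held no unevenness between cells, so they do not show how the intervals behave where a few cells hold most UMIs.

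The members and lists were chosen with earlier results of these data known. Named were the members, the 5 genes most correlated with Il33, Il1rl1, Gata3 or Areg (at least 100 UMIs, pseudocount 1), and list genes past 2-fold the same way in both depots, genotypes or libraries. GENCODE positions were found for 32158 of the 32290 identifiers. Python 3.11.15, pandas 2.3.3, scipy 1.17.1, numpy 2.4.6 and matplotlib 3.10.9 were used.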

Additional observations from a re-analysis of the deposited data

Results flagged for a closer look

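Some members differed between genotypes in opposite directions in the 2 depots, or between depots in opposite directions in the 2 genotypes, each beyond counting error. With 1 library a group the difference between the effects was not tested. Il33 in stromal cells was lower in KO in SC (log2 ratio -0.57) and higher in IP (0.54), and in early-marker stromal cells it was lower in SC (-0.72) and higher in IP (1.04). With each cell weighted equally these opposite directions were not seen in all stromal cells, at -0.13 in SC and -0.14 in IP, while early-marker cells stood at -0.46 in SC and 0.10 in IP. Il1rl1 in remaining lymphoid cells was lower in KO in SC (-1.66), from 1 cell with Il1rl1 in each genotype, and higher in IP (1.10), from 6 cells in KO and 2 in WT. Areg in remaining lymphoid cells was higher in KO in SC (0.96) and lower in IP (-4.42), while IP against SC was higher in WT (3.38) and lower in KO (-2.01). One WT IP cell with 59 of 67 Areg UMIs enters both of those opposite pairs.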

How the results depend on the processing

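No paired analysis was possible because each group has 1 library, and for the same reason no replicate could be left out. Of the recomputed values, 276 stayed within their counting error or within 1.5 times the count, and the rest moved beyond it. Of these, 5 changed sign, 3 of which had been beyond counting error before. Filters on genes and mitochondrial UMIs, whole clusters in place of marker classes, 1 UMI added and keeping the shared barcodes moved none of the values recomputed under them. Only 11 values were recomputed with whole clusters, against 37 with each filter. The clusters had broad names such as T or stromal and none for Treg, gamma delta T or remaining lymphoid cells, so they could not check those classes. The cause of the moves was not tested.

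With each cell weighted equally, Il33 in stromal cells was -0.13 (KO against WT, SC), -0.14 (IP, sign changed), -0.37 (IP against SC, WT) and -0.38 (KO, sign changed from a value within counting error). Il33 was -0.010 in mesothelial cells (sign changed), 0.10 in early-marker cells of IP and 0.26 for early against committed cells of WT IP (sign changed). Areg in Treg was -0.85 for KO against WT (sign changed from a value within counting error) and 4.99 against naive CD4 T cells in WT SC. With the highest cell of each library left out, Il1rl1 in remaining lymphoid cells of IP was 2.16, Gata3 in naive CD4 T cells -0.017 and Areg in Treg 1.42. Thinned to 1000 UMIs, Gata3 and Areg were each found in 0% of gamma delta T cells of WT SC, and Areg in 12.8% of Treg of KO SC.

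Counts of pathway genes past the fold in stromal cells, given as higher then lower, also moved. With no filter on low counts they were 5 and 8 for KO against WT in SC, 2 and 13 in IP, 10 and 7 for IP against SC in WT, and 7 and 11 in KO. At 1.5-fold the same counts were 3 and 2, 3 and 6, 6 and 7, and 5 and 9. With at least 50 UMIs they were 0 and 1 for KO against WT in IP, and 1 and 1 for IP against SC in WT. Doublets kept gave 0 higher in SC and 2 in IP, a stricter marker gate 2 higher in IP, and median-of-ratios scaling 4 lower in IP.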

Other observations

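Outside lymphoid cells Il1rl1 was found at low levels in stromal cells with early markers. WT SC held 17 UMIs in 6 of 103 stromal cells and KO SC 1 UMI in 125, and WT IP held 16 UMIs in 6 of 287 and KO IP 2 in 221. All but 1 of these UMIs lay in cells with early markers, and committed cells held 0 in all 4 libraries. The highest cell held 9 of the 17 UMIs in WT SC and 7 of the 16 in WT IP. The ratio of KO to WT in SC was -3.40 on the log2 scale, with an interval of -9.33 to -1.27. Macrophages of IP also carried it, with 19 UMIs in 10 of 95 cells of WT and 5 UMIs in 3 of 29 cells of KO.

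Areg was also found in NK cells of KO, with 8 UMIs in 3 of 18 cells of SC and 7 UMIs in 2 of 12 cells of IP, where WT held 0 UMIs in 26 and 55 cells. Of the 2 T cells of KO IP with UMIs of both Cd4 and Cd8, 1 carried 16 Il1rl1, 15 Gata3, 2 Il4 and 63 Rora UMIs, more Il1rl1 than any remaining lymphoid cell of IP.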
